A study of Mus musculus with 2 samples.

Results

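Distal intergenic peaks of the spleen were the DNase-seq peaks that lay outside every annotated gene and far from any protein-coding promoter. A peak was counted when its midpoint fell in no gene body of GENCODE vM21 basic (mm10, all gene types), was more than 1 kb from every annotated transcription start site and was at least 50 kb from the nearest protein-coding start. By this rule 2730 of 42454 peaks (6.43%) of replicate 1 and 4648 of 60683 peaks (7.66%) of replicate 2 were distal intergenic, a mean of 3689 ± 1356 (SD, n = 2). The rule used position only, and no measured value. The samples were whole spleens of 36-day-old female B6CASTF1/J mice, hybrids of C57BL/6J and the wild-derived CAST/EiJ strain. They formed 1 group of 2 libraries, labelled biological replicates 1 and 2, with no treatment, genotype contrast or control group. Comparisons were therefore made between classes of peaks within each library, no test across animals could be made, and all intervals are 95% Wilson intervals that cover counting error only.

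DNase I cuts chromatin where nucleosomes have been displaced, so a peak marks an accessible stretch of DNA, and a footprint is a short protected stretch inside it. Accessible sites away from promoters include enhancers, which can act on genes over long distances, and sites bound by CTCF, the protein that halts cohesin and helps to set the borders of chromatin loops. Gene deserts are long stretches with no protein-coding gene, and they often flank genes that control development or cell identity. In spleen the commonest nucleated cells are B and T lymphocytes, beside erythroid cells and the macrophages of the red pulp.

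The 6 windows of 150 bases below are printed because each carries a site type or position on which the results turn. Each is centred on a distal intergenic peak found in both libraries, read 5′ to 3′ on the plus strand of GRCm38 (mm10), so that it is the reference sequence and not an allele of these hybrid mice. Capitals mark the consensus match that lay within a footprint of both libraries after footprints were widened by 5 bases, and the last window has none. For each factor the window is the best-ranked eligible peak by signal with such a match. Eligible peaks with a match numbered 226 for CTCF, 15 for EBF, 14 for PU.1, 9 for RUNX and 9 for the octamer. Peaks on chromosomes 18 and Y, and peaks whose centre did not occur exactly once in the genome, were left out beforehand. So were peaks within 1 kb of any start listed by RefSeq or by the comprehensive GENCODE set.
CTCF site between Chd2 and Fam174b, chr7:73618465-73618614: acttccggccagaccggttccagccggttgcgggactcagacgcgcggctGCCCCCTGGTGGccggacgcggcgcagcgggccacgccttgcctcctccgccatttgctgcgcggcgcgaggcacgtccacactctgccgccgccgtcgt
EBF site between Btg1 and Dcn, chr10:96751645-96751794: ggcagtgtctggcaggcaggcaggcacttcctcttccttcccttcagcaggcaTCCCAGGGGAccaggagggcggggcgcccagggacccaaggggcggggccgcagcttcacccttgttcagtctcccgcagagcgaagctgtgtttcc
RUNX site between Haao and Zfp36l2, chr17:84119745-84119894: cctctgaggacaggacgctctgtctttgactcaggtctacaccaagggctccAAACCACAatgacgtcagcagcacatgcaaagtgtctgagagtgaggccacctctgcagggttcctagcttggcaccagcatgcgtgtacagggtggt
octamer between Caprin1 and Lmo2, chr2:103895175-103895324: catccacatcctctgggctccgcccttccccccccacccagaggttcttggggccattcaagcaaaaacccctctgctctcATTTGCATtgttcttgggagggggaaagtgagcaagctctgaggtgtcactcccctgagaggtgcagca
PU.1 site between Arf6 and Vcpkmt, chr12:69422965-69423114: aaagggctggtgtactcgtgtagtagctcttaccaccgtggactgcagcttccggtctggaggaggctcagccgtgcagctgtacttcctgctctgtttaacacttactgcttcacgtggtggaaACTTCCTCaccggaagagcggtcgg
peak farthest from any coding gene, between Cntnap5b and Cdh20, chr1:102628175-102628324: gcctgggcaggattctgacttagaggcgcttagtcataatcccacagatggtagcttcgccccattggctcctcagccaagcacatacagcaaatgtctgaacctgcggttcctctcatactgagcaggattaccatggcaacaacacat
The CTCF window lay 76.7 kb from Chd2, a chromatin remodeller gene, and its peak had a signal of 13.2 in replicate 1 and 14.7 in replicate 2. The EBF window lay 129 kb from Btg1, an antiproliferative gene expressed at high level in resting lymphocytes, with signals of 9.54 and 12.48. The RUNX window lay 64.1 kb from Zfp36l2, which encodes an mRNA-decay factor used in lymphocyte development, with signals of 5.35 and 10.2. The octamer, the motif of the Oct factors of B cells, stood 62.7 kb from Lmo2, a haematopoietic regulator gene, in a peak with signals of 3.36 and 6.56. The PU.1 window lay 49.3 kb from the gene body of Arf6 and 50582 bases from the nearest coding start, with signals of 2.62 and 4.33.

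Both libraries carried open promoters of the cell types that spleen holds. A peak lay at the promoter of 6 of 6 B cell markers in both libraries, of 5 and 6 of 6 T cell markers, of 3 and 5 of 5 erythroid markers and of 2 of 4 red pulp macrophage markers in both, and of 0 of 6 markers of other tissues. Deposited signals of up to 500 steps were whole multiples, within 0.01 of a step, of 0.0105 in replicate 1 and 0.00513 in replicate 2, steps that differed 2.06-fold. The depth of the libraries in reads was not given in the sources used here. Because the scale differed between libraries, signals are compared as percentiles within a library, with 100 the strongest peak.

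Distal intergenic peaks were weak and sparse. Their median signal was 0.886 in replicate 1 (84 steps, against 132 for all peaks) and 0.748 in replicate 2 (146 steps, against 222). Their median signal percentile was 27.7 in replicate 1 and 30.3 in replicate 2, a mean of 29.0 ± 1.83 (SD, n = 2). Peaks at promoters had median percentiles of 74.49 and 76.18, intronic peaks 38.02 and 41.33, and the other intergenic peaks, nearer to genes, 43.72 and 44.99. Distal intergenic peaks therefore had the lowest median of the 5 classes in each library, and the gap to intronic peaks exceeded the difference between libraries. The interquartile ranges of the classes nevertheless overlapped. The strongest 10% of each library included 20 distal intergenic peaks (0.733%) in replicate 1 and 46 (0.990%) in replicate 2. Intronic peaks stood at 0.829% and 1.44%, with intervals that overlapped in both libraries. In the weakest 10% lay 678 (24.8%) and 1065 (22.9%) of them, against 12.02% and 11.05% of intronic peaks. The median width was 175 bases in replicate 1 and 180 bases in replicate 2.

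**Figure D1:**
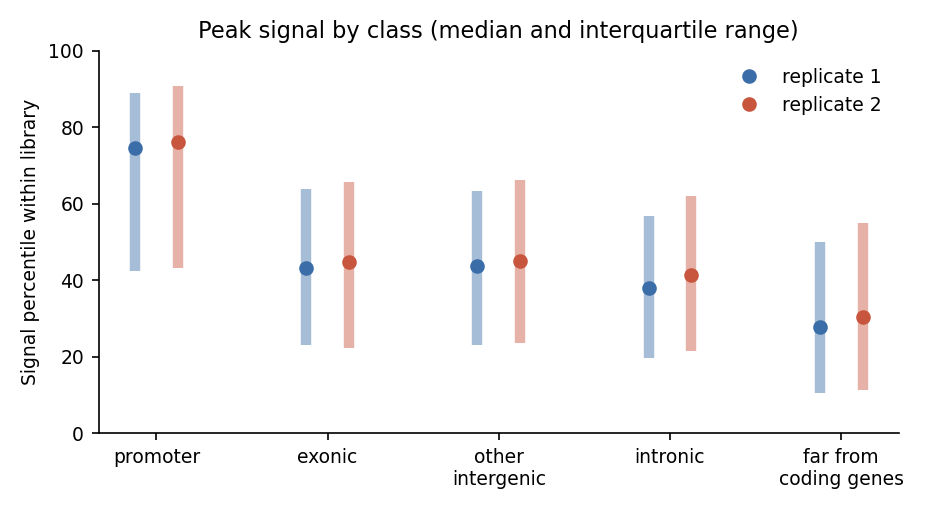
Signal percentile of peaks within each library (vertical axis, 0 to 100) for 5 classes of peak (horizontal axis). Points are medians and thick bars interquartile ranges over peaks, blue for replicate 1 and red for replicate 2. The medians of peaks far from coding genes, 27.7 and 30.3, are the lowest in each library.

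The sequence open to the rule came to 882.9 Mb, or 34.5% of the genome without gaps and the Y chromosome, and it held 3.09 peaks per Mb in replicate 1 and 5.26 in replicate 2. All peaks together stood at 16.6 and 23.7 per Mb. Density fell with every step away from coding genes in both libraries. Intergenic sequence 1 to 10 kb from a coding start had 20.8 peaks per Mb in replicate 1 and 30.8 in replicate 2. At 50 to 100 kb the values were 8.34 and 13.7, at 200 to 500 kb 1.51 and 2.71, and beyond 1000 kb 0.265 and 0.490. The strength of the peaks fell along the same distances, from a median percentile of 30.6 and 34.7 at 50 to 100 kb to 10.4 and 9.87 at 500 to 1000 kb. Beyond 1000 kb there were 20 peaks in replicate 1 and 37 in replicate 2, with medians of 8.15 and 15.6, so the last step of replicate 2 did not continue the fall.

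**Figure D2:**
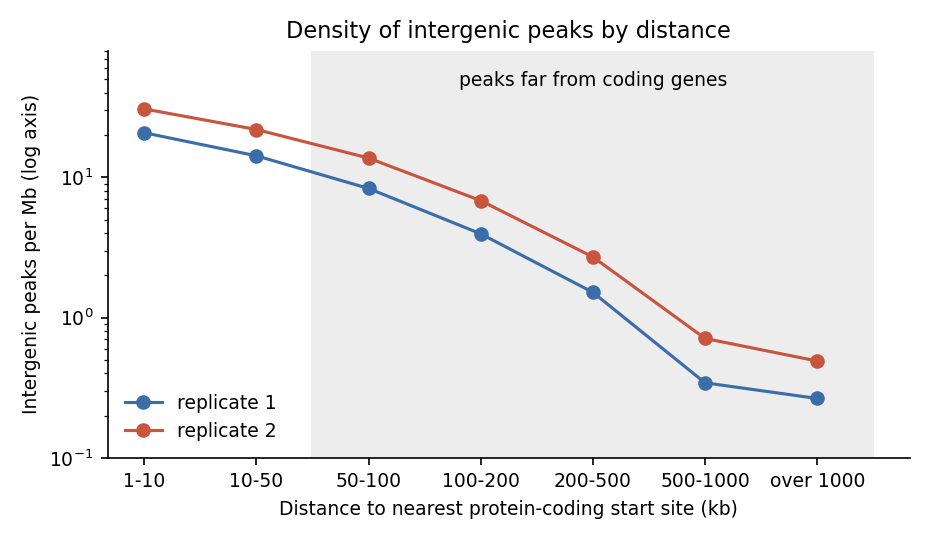
Intergenic peaks per Mb of intergenic sequence (vertical axis, log scale) by distance to the nearest protein-coding start in kb (horizontal axis), blue for replicate 1 and red for replicate 2. The shaded bins hold the peaks far from coding genes, from 8.34 and 13.7 per Mb at 50 to 100 kb to 0.265 and 0.490 beyond 1000 kb.

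The limit of 50 kb did not fall at a break in the data. The 560 intergenic peaks of replicate 1 lying 40 to 50 kb from a coding start had a median percentile of 32.3, and the 432 at 50 to 60 kb one of 33.9. In replicate 2 the 939 peaks outside and 718 peaks inside the limit had medians of 36.6 and 36.0. The nearest peaks inside the limit lay 50025 and 50006 bases from a coding start, and the nearest outside 49980 and 49970.

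The libraries shared most of the peaks of the smaller set. In each library, 2523 distal intergenic peaks overlapped a peak of the other library, which was 92.4% of replicate 1 and 54.3% of replicate 2, and the partner was itself distal intergenic for 2521 and 2522 of them. Over all peaks the shares were 93.8% and 65.7%, and over intronic peaks 93.7% and 55.7%, so that in replicate 1 the distal intergenic peaks stood close to the rest and in replicate 2 close to intronic peaks. The order of the libraries depended on how many peaks each held. When replicate 2 was limited to its strongest peaks, as many as replicate 1 had, 2333 of them were distal intergenic (5.50%), and 68.0% of replicate 1 and 79.5% of replicate 2 were shared. Merged over libraries, the peaks formed 4833 loci, of which 2504 were found in both, 209 in replicate 1 only and 2120 in replicate 2 only. Spearman's rho of the signals over the loci in both was 0.840, a description over loci that share the same pair of libraries.

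Consensus sites were sought on both strands in 150 bases around each peak's midpoint, and in windows of the same length 1 kb to either side. CTCF was searched by its core motif, PU.1 as GAGGAAGT, ETS as CCGGAAGT, RUNX as TGTGGTTT, EBF as TCCC and GGGA with any 2 bases between, the octamer as ATGCAAAT, E2A as CAGCTG and GATA as AGATAAG. The PU.1 and ETS patterns have their last 6 letters in common but cannot match at the same position, and no other pair among these 8 is nested. The other 10 were AP-1 (TGANTCA), IRF (GAAA and GAAA with any 2 bases between), C/EBP (TTGCNNAA), MEF2 (CTAAA directly before AATAG), TCF7/LEF1 (CTTTGATC), NFY (CCAATCA), SP/KLF (GGGCGGGG), NRF1 (GCGCA directly before TGCGC), YY1 (AAGATG directly before GCGGC) and NF-kB, by its motif name. A match describes letters and not binding. Of these 18 patterns, 9 had an interval above that of the neighbouring windows in both libraries, namely CTCF, PU.1, ETS, RUNX, EBF, octamer, E2A, NF-kB and SP/KLF. GATA, IRF, MEF2, TCF7/LEF1, NFY and YY1 had overlapping intervals in both.

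CTCF gave the widest separation from neighbouring sequence. A CTCF match stood in 355 distal intergenic peaks (13.0%, interval 11.8 to 14.3%) of replicate 1 and in 383 (8.24%, 7.48 to 9.07%) of replicate 2. Among neighbouring windows 0.0916% and 0.0861% held one. The share in all peaks was 8.49% and 6.19%, and in other peaks away from promoters 13.5% and 8.74%, the latter overlapping the intervals of the distal intergenic peaks. Of those others, nearer intergenic peaks stood higher, at 15.97% (15.2 to 16.8%) and 11.3% (10.7 to 11.9%), with separate intervals. Intronic peaks stood at 12.3% and 7.48%, with overlapping intervals. The matches had no common orientation, with 171 on the plus and 184 on the minus strand in replicate 1 and 179 and 204 in replicate 2.

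Against other peaks away from promoters, the intervals of PU.1, RUNX, EBF, ETS, the octamer, E2A and NF-kB overlapped in both libraries. The higher shares of PU.1, RUNX, the octamer and E2A than in all peaks were therefore not particular to distal intergenic peaks. The intervals of EBF and NF-kB overlapped those of all peaks, and ETS stood below all peaks. In other peaks away from promoters PU.1 stood at 5.94% and 6.94%, RUNX at 2.95% and 3.18%, and E2A at 13.75% and 15.25%. PU.1, the ETS factor of B cells and myeloid cells, matched in 166 peaks (6.08%) of replicate 1 and 332 (7.14%) of replicate 2, against 0.824% and 1.02% of neighbouring windows and 4.39% and 5.47% of all peaks. RUNX, the motif of factors that act in T cells and throughout blood formation, matched in 3.59% and 3.49% of the peaks, 1.43% and 1.23% of neighbouring windows and 2.02% and 2.39% of all peaks. EBF, the motif of the B lineage factor Ebf1, matched in 1.03% and 1.25%, against 0.366% and 0.290% of neighbouring windows and 0.968% and 1.08% of all peaks. The octamer matched in 2.53% and 2.22%, against 1.04% and 1.05% nearby, 1.85% and 2.035% of other peaks away from promoters and 1.46% and 1.66% of all peaks. ETS matched in 1.03% and 0.861%, against 0.128% and 0.151% nearby and 2.59% and 2.08% of all peaks. E2A, the E-box factor of early lymphocytes, matched in 13.0% and 15.2%, against 6.79% and 6.87% nearby and 11.5% and 13.3% of all peaks. NF-kB matched in 2.89% and 3.55%, against 1.54% and 1.51% nearby and 3.31% and 3.54% of all peaks. SP/KLF, a GC-box typical of promoters, matched in 3.19% and 2.86%, against 0.843% and 0.721% nearby but 12.03% and 9.45% of all peaks and 23.5% and 21.6% of promoter peaks. C/EBP, a motif of myeloid factors, had an interval above that of other peaks away from promoters in both libraries, at 7.11% (6.2 to 8.13%) against 5.65% (5.35 to 5.96%) and at 7.75% (7.01 to 8.55%) against 6.16% (5.91 to 6.41%). Against nearer intergenic peaks alone, at 5.92% and 6.27%, the C/EBP intervals overlapped in replicate 1 and were separate in replicate 2. Against intronic peaks alone they were separate in both libraries. The neighbouring windows of C/EBP stood at 6.06% and 6.34%, with intervals that overlapped in replicate 1 and did not in replicate 2. All peaks stood at 4.85% and 5.44%. GATA, the motif of the erythroid factor Gata1 and the T cell factor Gata3, matched in 1.80% of the peaks of replicate 1 and 2.67% of those of replicate 2, beside 1.96% and 2.07% nearby and 1.36% and 2.26% of all peaks.

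**Figure D3:**
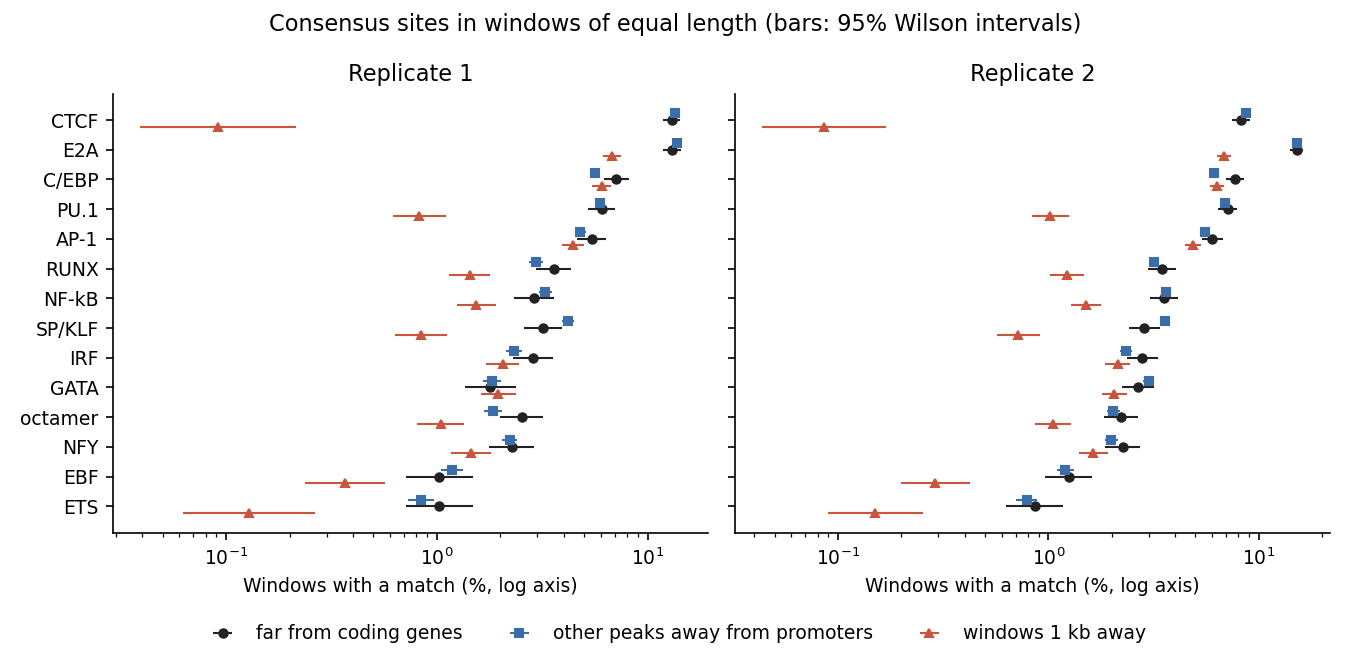
Share of 150-base windows with a match to 14 of the 18 patterns (horizontal axis, percent on a log scale), 1 panel per library. Black circles are peaks far from coding genes, blue squares other peaks away from promoters and red triangles windows 1 kb away, with 95% Wilson intervals. CTCF stands farthest from its neighbouring windows, at 13.0% against 0.0916% in replicate 1 and 8.24% against 0.0861% in replicate 2.

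Footprints were found in 2333 of the 2730 peaks (85.5%) of replicate 1 and in 93.6% of those of replicate 2, with medians of 2 per peak in each and median widths of 9 and 10 bases. The shares with a footprint were 91.1% and 95.3% for nearer intergenic peaks, 89.3% and 94.3% for intronic peaks and 81.8% and 85.8% for promoter peaks. Of the peaks with a CTCF match, the match lay within a widened footprint in 258 of 355 (72.7%) in replicate 1 and in 360 of 383 (94.0%) in replicate 2. For PU.1 this held for 26 of 166 (15.7%) and 77 of 332 (23.2%), and for EBF for 14 of 28 and 42 of 58 (72.4%). Replicate 2 had more footprints inside these peaks than replicate 1, 11472 against 5244.

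Among replicate 2 peaks, those with a CTCF match were found in both libraries more often. Of the replicate 2 peaks with a match, 321 of 383 (83.8%, 79.8 to 87.2%) were also peaks in replicate 1, against 2202 of 4265 (51.6%, 50.1 to 53.1%) without. The median signal percentiles were close, 29.6 with and 30.3 without a match. In the weakest 25% of the replicate 2 peaks, 67 of 106 with a match (63.2%, 53.7 to 71.8%) and 188 of 1056 without (17.8%, 15.6 to 20.2%) were found in replicate 1. In the strongest 25% the shares were 98.8% and 92.7%. Seen from replicate 1, whose peaks were nearly all present in replicate 2, the shares were 90.1% with a match and 92.8% without, and the intervals overlapped. Among replicate 2 peaks absent from replicate 1, 2.92% held a CTCF match, against 12.7% of the shared ones. With equal numbers of peaks, an alternative added after the data were seen, 184 of 190 replicate 2 peaks with a CTCF match (96.8%, 93.3 to 98.5%) and 77.9% (76.1 to 79.6%) of those without were shared. Seen from replicate 1 the order then turned, with 184 of 355 (51.8%, 46.6 to 56.98%) shared with a match and 70.4% (68.5 to 72.2%) without. Other patterns also had separate intervals. In replicate 2, 47 of 124 peaks with a GATA match (37.9%, 29.9 to 46.7%) were shared, against 54.7% without, and 68.0% (58.4 to 76.2%) with an octamer match, against 53.97% without. Signal differed too, with median percentiles of 23.5 with and 30.5 without a GATA match, and 45.2 with and 29.96 without an octamer match. In replicate 1, PU.1 stood at 98.8% with and 92.0% without a match, the octamer at 69 of 69 and 92.2%, and E2A at 95.8% and 91.9%. For PU.1 and E2A the order turned in replicate 2, at 51.8% and 54.5% and at 50.35% and 54.98%, with overlapping intervals. GATA in replicate 1 stood at 95.9% with and 92.3% without, with overlapping intervals. With equal numbers of peaks the intervals for GATA overlapped in both libraries, at 67.3% and 79.8% in replicate 2. Those for the octamer overlapped in replicate 2, at 88.1% and 79.2%, and were separate in replicate 1, at 84.1% and 67.5%. Promoter peaks of the erythroid genes Klf1 and Gata1, and of the T cell gene Cd3e, were present in replicate 2 only, and the part of cell make-up or depth in these differences was not tested.

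**Figure D4:**
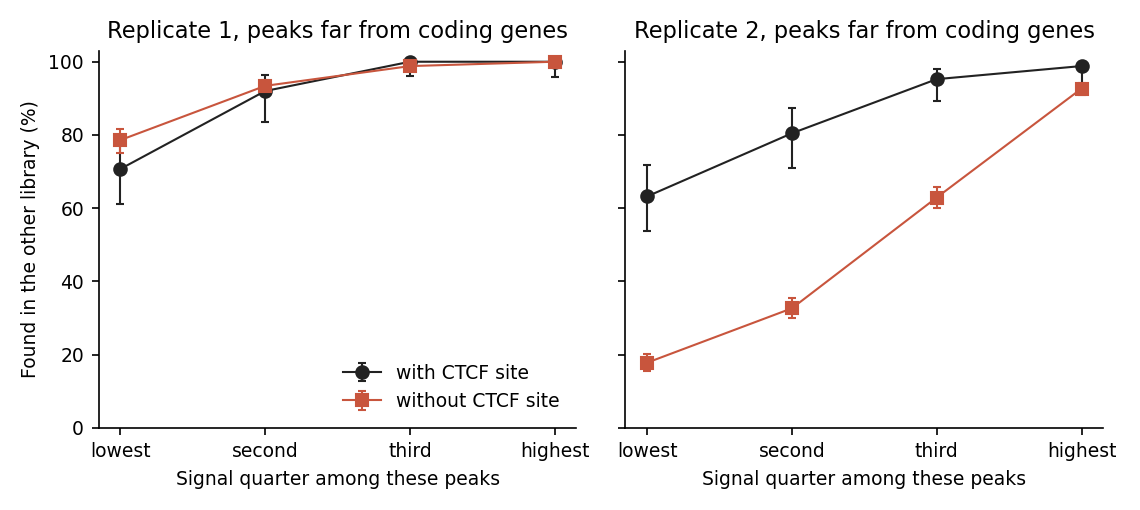
Share of peaks far from coding genes that overlap a peak of the other library (vertical axis, percent) by quartile of their signal (horizontal axis), with (black) and without (red) a CTCF match, bars being 95% Wilson intervals. In replicate 2 the lowest quartile stands at 63.2% with and 17.8% without a match, and in replicate 1 the intervals overlap in every quartile.

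Base composition separated a small CpG-rich group. The median GC content was 51.3% in both libraries. CpG-rich windows had GC above 50% and an observed-to-expected CpG ratio above 0.6. They made up 230 peaks (8.43%) of replicate 1 and 271 (5.83%) of replicate 2. These had median percentiles of 46.9 and 44.8, above the 26.4 and 29.2 of the remaining distal intergenic peaks. Of the 100 strongest loci found in both libraries 26 were CpG rich, 8 held a CTCF match, 6 a PU.1 match and 19 lay within 1 kb of a RefSeq start. The central 31 bases occurred more than once in the genome for 7 of the 100.

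Part of the set was near starts that the basic annotation lacks. A start of any RefSeq gene lay within 1 kb of 154 peaks (5.64%) of replicate 1 and 235 (5.06%) of replicate 2, a RefSeq coding start within 1 kb of 22 and 28, and a RefSeq gene body over 464 (17.0%) and 803 (17.3%). Peaks within 1 kb of a start from RefSeq or from the comprehensive GENCODE set had median percentiles of 37.5 and 42.3, against 27.1 and 29.6 for the rest. They were CpG rich in 23.1% (17.2 to 30.3%) and 16.03% (11.9 to 21.2%) of cases, against 7.54% and 5.28%.

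The strongest distal intergenic peak lay between Wnt7b, a Wnt ligand gene, and Ppara, a nuclear receptor gene of lipid metabolism, at chr15:85634481-85634840. Its signal was 16.3 in replicate 1 and 25.1 in replicate 2, ranks 106 and 102 of all peaks, and it stood 14 bases from the RefSeq start of the non-coding gene D130051D11Rik. Next came the peak at chr15:81523221-81523420, with signals of 12.2 and 16.8. It lay 46961 bases from the gene body of Rbx1 and 62.0 kb from Ep300, the gene of a histone acetyltransferase. The peaks ranked the third and the sixth stood at starts of coding genes. One, at chr5:150118481-150118680 with signals of 11.6 and 17.3, was 65 bases from the body of Fry, a gene of cell shape and spindle organisation. The other, at chr14:65149921-65150200 with signals of 10.4 and 14.99, was 215 bases from Extl3, a heparan sulphate synthesis gene. The comprehensive GENCODE set lists starts at both places, and the basic set does not. The CTCF window between Chd2 and Fam174b belonged to the fourth peak. The fifth, between Gm8797 and 1700008P02Rik, had signals of 20.5 and 12.8, ranks of 17 and 2183, and a centre that occurred 8 times in the genome. It had the highest signal of the distal intergenic peaks of replicate 1.

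The eighth peak was the EBF window near Btg1, which also held matches for PU.1 and SP/KLF. The ninth lay 53934 bases from the nearest coding start, that of Runx3, a regulator of cytotoxic T cells, and 28440 bases from its gene body, with signals of 8.06 and 13.0. The gene body of Clic4, on the other side, was nearer, at 7539 bases. The tenth lay between Zeb1, a zinc-finger repressor of lymphoid and mesenchymal cells, and Arhgap12, with signals of 7.79 and 13.0.

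The strongest single-library locus of each library lay close to shared loci. The strongest locus of replicate 2 alone, with a signal of 6.22 and percentile 88.9, lay at chr15:81522941-81523140, next to the second peak above. The strongest of replicate 1 alone, with a signal of 2.13 and percentile 65.6, lay between Lrrc74a and Irf2bpl, inside a cluster found in both libraries.

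Gene deserts, taken as at least 500 kb between neighbouring protein-coding gene bodies, numbered 657 and spanned 755.5 Mb. Off the Y chromosome they held 870 distal intergenic peaks of replicate 1 and 1514 of replicate 2. With the Y chromosome, 32.0% and 32.7% of the distal intergenic peaks lay in deserts, a mean of 32.4 ± 0.527% (SD, n = 2). Density in deserts was 1.15 and 2.00 peaks per Mb, below the 3.52 and 6.07 of intervals of 100 to 500 kb. It fell from 2.02 and 3.49 per Mb in intervals of 500 to 1000 kb to 0.365 and 0.595 in those of 2000 kb or more. The peaks were spread unevenly, with 299 deserts holding none in either library, 268 holding some in both, and the 10 richest holding 15.6% and 17.0% of all desert peaks. Of the 270 deserts of 1 Mb or more, 124 were empty in both libraries. The longest empty ones were Tenm3 to Aga (4667.8 kb), Olfm4 to Pcdh17 (4420.4 kb), Dsel to Cntnap5a (3819.8 kb), Pcdh7 to G6pd2 (3675.6 kb) and Stim2 to Pcdh7 (3596.9 kb). Tenm3, Pcdh17, Cntnap5a and Pcdh7 encode adhesion proteins of the nervous system.

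The desert with the most shared loci lay between Foxo1, a transcription factor gene required for B and T cell development, and Cog6, a Golgi complex gene. Its 628.7 kb held 19 peaks in replicate 1 and 42 in replicate 2, with 17 loci in both, or 30.2 and 66.8 peaks per Mb. The strongest of these stood 90.9 kb from the Foxo1 gene body at chr3:52443941-52444240, with signals of 4.15 and 9.83 (percentiles 81.5 and 94.1), 6 footprints in each library and matches for E2A and AP-1. Peaks occurred in groups along the interval, and none of the 19 and 42 held a CTCF match. Between Trib2, a pseudokinase gene, and Lpin1, a lipid phosphatase gene, 718.7 kb held 15 and 21 peaks with 15 shared loci. The strongest, 566.8 kb from Trib2, had signals of 3.58 and 5.91. Between Gadd45g, a growth-arrest gene, and Diras2, 655.9 kb held 15 and 30 peaks with 14 shared, and the strongest, 235.8 kb from Gadd45g, had signals of 4.56 and 8.15. Between Ebf1, which specifies the B lineage, and Clint1, 844 kb held 14 and 22 peaks with 14 shared. Its best-ranked peak over both libraries, 531.5 kb from Ebf1, had signals of 2.53 and 3.32, while a peak 0.208 kb from the Ebf1 gene body reached 2.88 in replicate 1. Between Npvf and Nfe2l3, 778.2 kb held 13 and 23 peaks with 13 shared, tied with the 856.8 kb from Btg1 to Dcn, which held 14 and 18 peaks with 13 shared. The best-ranked peak between Npvf and Nfe2l3, with signals of 2.69 and 1.92, was 1 of 3 peaks with a CTCF match in that interval in each library.

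**Figure D5:**
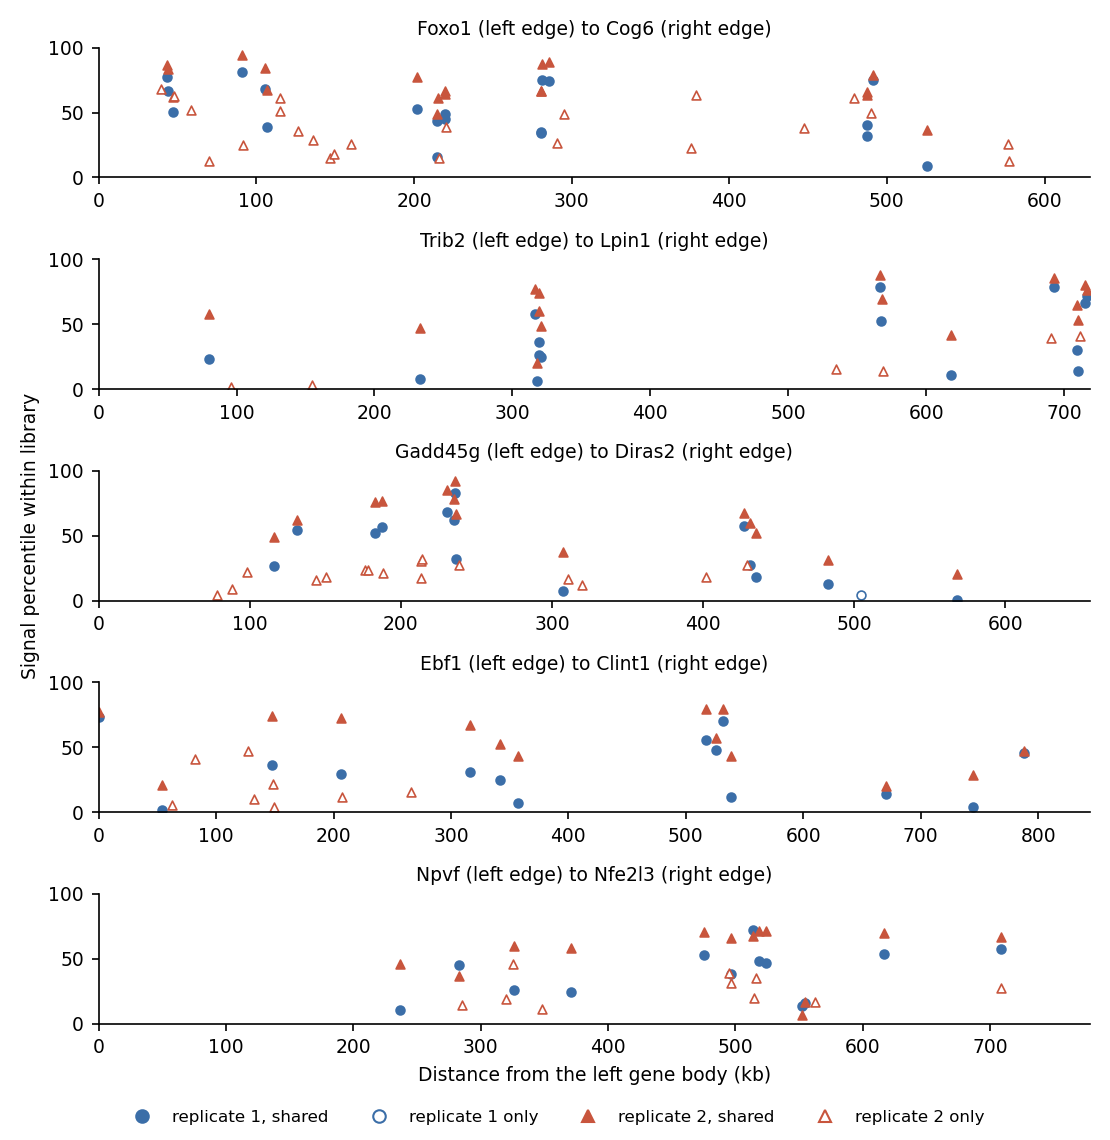
Peaks far from coding genes in the 5 deserts with the most shared loci, by distance from the left gene body in kb (horizontal axes) and signal percentile within the library (vertical axes). Blue circles are replicate 1 and red triangles replicate 2, filled where a peak overlapped one of the other library. The Foxo1 to Cog6 interval holds 19 and 42 peaks in separate groups along 628.7 kb.

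Some shorter intervals held as many peaks, and these are given after their values were seen. The interval from Tle3, a Groucho-family corepressor gene, to Rplp1 held 21 and 29 peaks over 494.8 kb, with 21 loci found in both. On the other side of Tle3, 492 kb up to Uaca held 14 and 25 peaks, so that Tle3 had the most flanking peaks of any coding gene, 35 in replicate 1 and 54 in replicate 2. Haao to Zfp36l2 (336 kb) held 14 and 20, Arf6 to Vcpkmt (203.8 kb) 13 and 17, and Ccnd2, a cyclin gene, to Parp11 (294.6 kb) 12 and 13. In all, 909 of 2710 intervals of 100 kb or more held a peak in both libraries, and 20 had 10 or more shared loci.

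Clusters were defined by position alone, as runs of at least 3 distal intergenic peaks of 1 library with midpoints at most 12500 bases apart. There were 159 in replicate 1 with 596 peaks (21.8% of its distal intergenic peaks) and 387 in replicate 2 with 1684 (36.2%). They formed 401 cluster loci, 143 of them found in both libraries, 14 in replicate 1 only and 244 in replicate 2 only. Peaks inside clusters were stronger than those outside, with median percentiles of 42.0 against 23.1 in replicate 1 and 44.8 against 22.3 in replicate 2. They held fewer CTCF matches, 6.54% against 14.8% and 4.57% against 10.3%.

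The cluster with the most peaks differed from the rest. It lay at chr4:3052842-3086326, beyond the last coding gene on that side of the chromosome and 81.0 kb from Vmn1r2, a vomeronasal receptor gene, and held 28 peaks in replicate 1 and 25 in replicate 2. Their median percentiles were 0.0483 and 0.574, among the weakest peaks of each library, 10 and 8 of them were at least 50% soft-masked repeat, and none held a CTCF or PU.1 match. The other leading clusters lay in the interior of chromosomes and had stronger peaks. Pced1b to Rpap3 held 5 and 16 peaks over 14.3 kb, with best signals of 3.23 and 5.22. S1pr1, the receptor gene that lets lymphocytes leave lymphoid organs, to Dph5 held 7 and 13 peaks over 30.5 kb, with best signals of 1.88 and 2.89. Lrrc74a to Irf2bpl held 8 and 12 over 38.6 kb with best signals of 5.50 and 10.3, and 27 and 42 footprints. Pkdcc to Eml4 held 8 and 11 over 12.4 kb, with best signals of 3.80 and 6.46. Haao to Zfp36l2 held 7 and 10 over 25.6 kb, with best signals of 7.20 and 10.2, and included the RUNX window shown above. Clusters with 5 and 10 peaks lay near Bach2, a repressor that guides B and T cell fates, between Chsy1 and Lrrk1, and near Tbl1xr1, a corepressor gene. The Bach2 cluster stood 68.0 kb from that gene's body and reached signals of 1.70 and 2.14.

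Genes flanking the peaks were counted for 5 lists. Of all 21728 coding genes, 1957 (9.01%) flanked a distal intergenic peak in both libraries, with 1.75 and 3.001 peaks per Mb of flanking interval. Of 40 lymphoid and myeloid regulators, 26 did (65.0%), with 6.15 and 10.3 peaks per Mb. The leading ones were Foxo1 with 19 and 42 peaks, Zfp36l2 with 14 and 20, Ebf1 with 14 and 22, and Mef2c, a MADS-box factor of B cells and muscle, with 11 and 16. Their intervals were longer than usual, with a median of 323.1 kb against 34.3 kb over all coding genes, and a longer interval has more room for peaks that meet the rule. Of 40 lymphocyte surface, cytokine and signalling genes, 12 (30%) flanked such a peak, with 9.06 and 13.6 peaks per Mb. These included Btg1 with 27 and 37, Cd83, an activation marker gene, with 13 and 26, Cxcr4, a chemokine receptor gene, with 10 and 16, and Syk, a kinase gene of the B cell receptor, with 7 and 7. Of 20 erythroid and macrophage genes 2 did (10%), a share near the 9.01% of all coding genes, with 2.26 and 4.07 peaks per Mb. Among them was Maf, a macrophage transcription factor gene, with 4 and 7 peaks.

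Lists from other tissues had longer intervals and fewer peaks per Mb than all coding genes, but larger shares of genes that flanked a peak. Of 40 developmental regulators 17 (42.5%) flanked a peak in both libraries, led by Sox5 with 9 and 15. They had 1.24 and 1.93 peaks per Mb and a median interval of 732.8 kb over the whole list. Bcl11a, with 7 and 12, is in this list and in that of lymphoid regulators. Of 40 neural adhesion and synapse genes 12 (30%) did, led by Cdh4 with 8 and 15. This list had 0.326 and 0.480 peaks per Mb and a median interval of 2344.4 kb. Density fell with length over all intervals between coding genes, from 2.94 and 5.33 peaks per Mb at 250 to 500 kb to 0.365 and 0.595 at 2000 kb or more. Intervals of 1000 to 2000 kb held 0.897 and 1.62 per Mb. The median lengths given for the lists add both flanking intervals of a gene, so they cannot be matched to these lengths of single intervals. The lists are not compared with each other. Immunoglobulin or T cell receptor segments, which the rule does not count as protein-coding genes, lay within 50 kb of 36 peaks of replicate 1 and 66 of replicate 2.

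The peak farthest from a coding start among those in both libraries was strong, unlike most remote peaks. It lay at chr1:102628161-102628340, 2140279 bases from the start of Cdh20, a cadherin gene, in a desert of 4282.6 kb that held 3 peaks in each library. Its signals of 6.55 and 4.24 put it at percentiles 89.9 and 83.7, with 3 and 2 footprints, no match to the 18 patterns, and a centre found once in the genome. The next 2 lay together in the same desert, 7847 and 7209 bases from the start of the non-coding gene Gm28187, with percentiles of 0.214 and 7.82 and of 27.7 and 58.4. The weaker of them was wholly soft-masked, and its centre occurred 4 times. The fourth lay between Pcdh20 and Pcdh9, with percentiles of 6.501 and 15.6. The fifth lay in the immunoglobulin kappa locus, 1086 bases from the variable segment pseudogene Igkv13-76, with an octamer match and percentiles of 22.4 and 46.9.

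By chromosome, the share of peaks that were distal intergenic was lowest on chromosome 11, at 3.24% and 3.75%, and high on chromosomes 13, at 10.02% and 12.4%, and 18, at 10.7% and 12%. The X chromosome held 75 and 130, or 7.29% and 9.10% of its peaks. The Y chromosome held 3 and 8 although the mice were female, and the central 31 bases of 3 and 5 of these occurred more than once in the genome.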

How the data were processed

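DNase-seq was measured in 2 libraries of spleen, grouped by their labels as replicates of 1 group; where the labels name no more than a biological replicate number, the spread is that between these libraries. Per the readme files deposited with the libraries, the authors derived peaks, footprints and a per-base false discovery rate of the cut rate from each library alone on mm10. The peak signal deposited by the authors is on a scale not given in the sources used here, nor are the aligner and the callers. The p-value column of the deposited footprints holds the authors' FDR threshold, 0.01 on every line, and the cut-rate track lists runs with FDR under 0.05. Of the 2 peak lists per library the one with fewer lines was used (42454 and 60683 peaks, against 61285 and 89476 in the longer lists).

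Peaks were classified by midpoint with Python 3.11.15, numpy 2.4.6, pandas 2.3.3 and scipy 1.17.1. Promoter peaks overlapped 1 kb to either side of a coding start. A peak was shared when at least 1 of its bases lay in a peak of the other replicate. Sites were sought in 150 bases of GRCm38 reference sequence, and copies by exact matches of the central 31 bases in the primary assembly. The scripts were tested on simulated data. Named genes flank the 10 shared loci with the best mean rank, the 10 largest clusters, the 5 deserts with most shared loci, the 5 longest empty ones, the 5 farthest shared loci, and up to 4 genes per list with the most shared loci; a few of these are not reported here. The rule for the peaks and the gene lists were chosen with earlier results of these data known. Alternatives covered the peak list, distance limits, annotation, repeats, window, desert and cluster definitions, and each library alone.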

Additional observations from a re-analysis of the deposited data

How the results depend on the processing

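No paired analysis was possible because there is 1 group and no result comes from a test. Of 89 values recomputed under alternatives, 60 stayed within the SD between libraries or, for numbers of peaks and clusters, within 1.5 times, and 29 did not. The 20 values of single libraries lie within 1 SD of the mean by construction and say nothing about stability. With the longer peak list, distal intergenic peaks numbered 7109 per library (9.28% of peaks, median percentile 25.3), with 69.5% holding a footprint, 5.54% a PU.1 match, 39.8% in deserts and 554.5 clusters. With a limit of 20 kb they numbered 6908 (13.2%, median percentile 34.0, 19.4% in deserts, 537 clusters), and with 100 kb 1765 (3.36%, 24.0, 52.9%, 114 clusters, GC 50.7%). The share of peaks was 5.96% with equal numbers of peaks, 9.66% with coding genes only in the rule, and, under alternatives chosen after seeing the data, 6.13% with the comprehensive annotation (35.7% in deserts) and 5.69% with RefSeq added. Windows of 100 bases gave 4.90% with PU.1, and whole peaks a GC of 51.1%. Deserts of 250 kb held 55.4% and of 1 Mb 12% of distal intergenic peaks. Clusters numbered 177 with 5 kb stitching and 71.5 with at least 5 peaks, and ranged from 159 to 387 over single libraries. The causes were not tested beyond what each setting's own construction changes. Weak peaks rest on few signal steps, and the depth in reads was not given in the sources used here.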
